A study of Sus scrofa with 34 samples.

Results

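The livers of 12 piglets were compared, 6 fed a control diet (CTR) and 6 fed the same kind of diet with a phytogenic feed additive (PFA), out of the 34 libraries of the series. They were taken by their labels, as all liver libraries of these diets, and all genes of the liver count table entered, of which 13831 of 25880 had enough counts to be tested. The series also holds livers of piglets fed oxidized rapeseed oil without or with the additive (OO and OO + PFA), and ileum libraries from 10 of the control and PFA piglets. Messenger RNA was sequenced from poly(A)-selected stranded libraries, and a level is given as CPM, read pairs on a gene scaled to all read pairs on genes in the library, with TMM factors.

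The additive was an essential-oil product that holds compounds such as carvacrol, thymol and menthol. All piglets were weaned crossbreds of Landrace × Large White sows and Pietrain boars, labelled d28, and neither diet compared here held the oxidized oil. The study's methods describe day 28 of feeding, of piglets already weaned, while the text of the series gives d28 as an age. With 1 pen to a diet, effects of the pen and of the diet cannot be told apart. By counts of the Y-linked gene KDM5D each diet held 3 males and 3 females, with at least 67 counts in a male and 0 in each female. The library titles came in 2 forms, PigLiv (4 controls, 3 PFA) and PL (2 controls, 3 PFA), whose meaning the labels do not give. The PL titles of controls end in 1 and those of PFA pigs in 2, also without a stated meaning. Within PL titles the diet and this ending cannot be told apart. Pigs are named by their diet and number, as in C-80 or P-95. Where the value of each pig is given, controls are in the order C-71, C-80, C-85, C-92, C-100 and C-110, and PFA pigs in the order P-67, P-75, P-95, P-107, P-134 and P-138. An error after ± is the SE of a log2 fold change unless it is named as an SD.

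The liver takes up what the gut absorbs. Its hepatocytes make glucose from amino acids and lactate, turn the nitrogen of amino acids into urea, make and export lipids and bile acids, and oxidize and conjugate foreign compounds such as plant oils. Nuclear receptors sense such compounds, and the factor Nrf2 (NFE2L2) turns on genes against oxidative stress. BMP ligands act through receptor kinases and SMAD proteins on target genes such as ID1. Resident macrophages (Kupffer cells), stellate cells, sinusoidal endothelium and lymphocytes share the tissue.

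Between 23109323 and 42446834 read pairs per library fell on genes, and all 12 hepatocyte markers, albumin and prothrombin among them, were measured in every liver. SERPINA1, usually an abundant liver transcript, had only 28 to 155 counts. Over all genes tested, the distance between the diets gave a pseudo-F of 1.367 (exact permutation test, p = 0.119 over 924 relabelings). Read pairs that fell on no gene made up 10.9% to 17.4% of those in controls and 6.53% to 11.8% with PFA. Their means were 12.96% ± 2.51 and 9.65% ± 2.01 (SD, n = 6 each, two-sided exact permutation test, p = 0.0152, adjusted p = 0.0909 over 6 library measures). Among PigLiv titles this share was 10.9% to 12.1% in controls and 10.2% to 11.8% with PFA, and among PL titles 14.4% to 17.4% and 6.53% to 10.9%. Of the 12 livers, C-80 (58.1) and P-95 (-54.4) lay at the 2 ends of the first principal component, which held 24.7% of the variance. Summed markers of Kupffer cells and endothelium were lowest in the controls C-80 and C-85, at 612.6 and 570.9 CPM and at 200.4 and 270.1 CPM, while those of T and NK cells were highest there, at 156.5 and 132.4 CPM. In bulk tissue fewer cells of a type and less RNA per cell cannot be told apart. Both pigs have a PL title, and counts of the gene lists are also given without these 2 pigs.

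**Figure D1:**
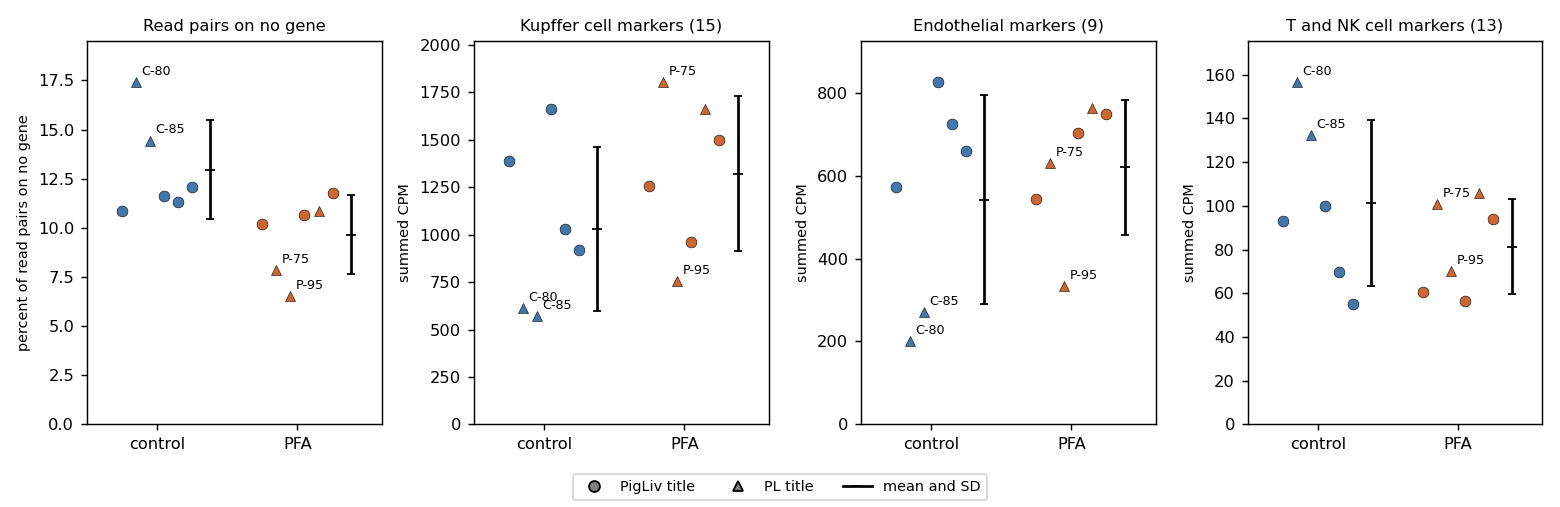
Library measures in each liver, control (blue) and PFA (orange), with the mean and SD: percent of read pairs on no gene and the summed level (CPM) of Kupffer cell, endothelial and T and NK cell markers. Circles are PigLiv and triangles PL titles. The control pigs C-80 and C-85 have the 2 highest shares on no gene (17.4% and 14.4%) and the 2 lowest Kupffer and endothelial sums.

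No gene passed the test between PFA and control livers. The smallest p after Benjamini-Hochberg adjustment was 0.166 (quasi-likelihood test of edgeR), and 0 of 13831 genes (0%) were called. At an unadjusted p under 0.05 there were 1522 genes (11.0%), 525 higher with PFA (3.80%) and 997 lower (7.21%). limma-voom called 0 genes as well, with 1529 at an unadjusted p under 0.05, while DESeq2 called 37 genes, all of them lower with PFA, with a smallest adjusted p of 0.0397. The median log2 fold change of all genes was 0.03, and the median SE of a gene was 0.20. The 6 PFA livers lay wholly above the 6 controls for 26 genes (0.188%) and wholly below for 110 genes (0.795%).

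The number of genes at that unadjusted p depended on pigs with a PL title of both diets, most on the control C-80. Without C-80 there were 838 and without C-85 1057, and without P-95 1145, without P-75 1232 and without P-134 1408. Without both PL controls there were 554 (3.99%), of which 154 were higher, and among PigLiv titles alone 271. Smaller sets of pigs can also give larger p-values. Among PL titles alone, where the diet cannot be told apart from the title ending, there were 2319. Among PigLiv titles, a subset of the same pigs, 519 of 524 of the higher genes with a value were also higher, with a median log2 fold change of 0.22 there against 0.41 over all pigs. Of the 997 lower genes 947 of 995 were lower, with a median of -0.23 against -0.50. With the share of read pairs on no gene as a term in the fit 463 genes had an unadjusted p under 0.05. The part of the cell markers in these differences was not tested.

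Genes also differed by their GC content, which had a value for 11024 of the tested genes, 443 of the 525 higher and 736 of the 997 lower at an unadjusted p under 0.05. Since this is under 80% of the tested and of the lower genes, the values are a description only. With these genes in 5 bins of like size, 11.6% of the bin with the lowest GC content were higher with PFA at that p and 1.41% lower. In bin 4, between 54.6% and 60.2% GC, 0.771% were higher and 12.9% lower. The pattern did not go on into bin 5, with the highest GC content, where 1.995% were higher and 3.9% lower. The median GC content was 41.4% for the higher, 54.6% for the lower and 51.3% for all genes. The slope of expression on GC content per library overlapped between the diets (two-sided exact permutation test, p = 0.556, adjusted p = 0.823). With that slope as a term in the fit over these genes 13 genes were called, 11 higher and 2 lower, against 0 without the term and 0 with the share of reads on no gene as a further term. With the slope alone 2072 had an unadjusted p under 0.05, of which 1110 were higher.

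**Figure D2:**
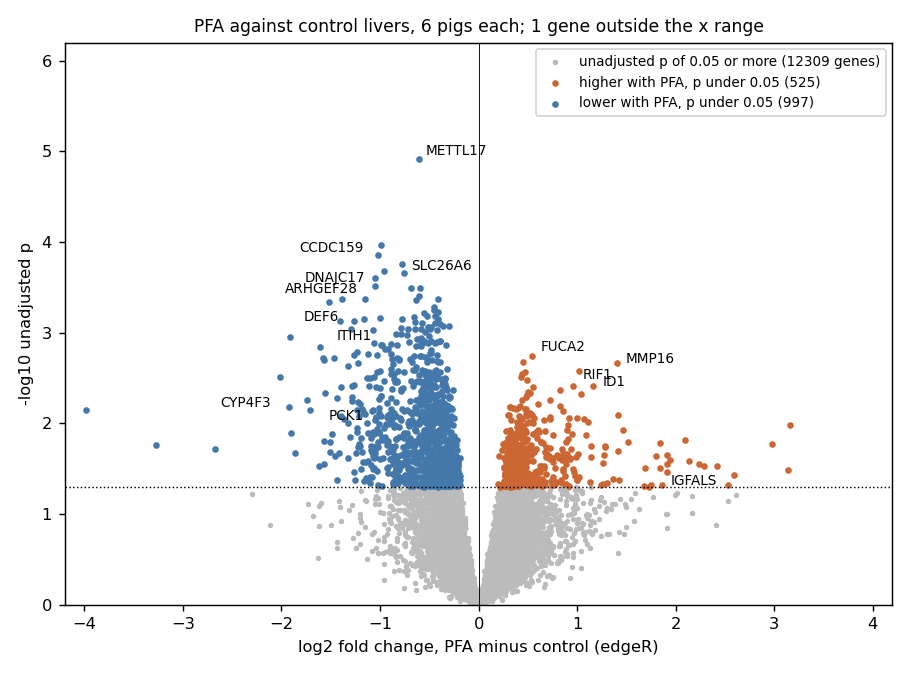
Each point is 1 of the tested genes, with its log2 fold change, PFA minus control, on the x axis and the unadjusted -log10 p of edgeR's quasi-likelihood test on the y axis. The dotted line marks an unadjusted p of 0.05. More genes lie above it on the lower side (997) than on the higher side (525), and METTL17 has the smallest p of the named genes.

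The genes with the smallest p were lower with PFA. METTL17, which acts in the assembly of the mitochondrial ribosome (ENSSSCG00000021718, chr7:78138237-78145322, minus strand), lay between 11.2 and 14.95 CPM (median 11.99) in the controls and between 6.96 and 9.15 CPM (median 7.99) with PFA. The groups did not overlap. Its log2 fold change was -0.61 ± 0.11 (SE, unadjusted p = 1.2e-05, adjusted p = 0.166), and without the PL controls -0.53 (unadjusted p = 0.000148).

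DNAJC17, a J-domain protein linked to splicing, lay between 20.6 and 40.1 CPM (median 24.8) in the controls and between 7.37 and 20.1 CPM (median 12.7) with PFA, with a log2 fold change of -0.96 ± 0.22 (SE, unadjusted p = 0.000207, adjusted p = 0.27). CCDC159 lay between 12.8 and 27.4 CPM (median 13.9) in the controls and between 4.11 and 11.4 CPM (median 8.52) with PFA, with -1.02 ± 0.22 (SE, unadjusted p = 0.00014, adjusted p = 0.27). Neither gene overlapped between the diets, and C-80 was the highest control for both. The splicing and export helicase DDX39B lay between 155 and 251 CPM (median 174) in the controls and between 85.4 and 137.5 CPM (median 127) with PFA, again without overlap, and its log2 fold change was -0.64 ± 0.16 (SE, unadjusted p = 0.000439, adjusted p = 0.27). The RNA-binding coactivator RBM14 (-0.59 ± 0.14, adjusted p = 0.27), the chromatin protein ZMYM3 (-0.60 ± 0.15, adjusted p = 0.27), the tethering subunit VPS52 (-0.45 ± 0.11, adjusted p = 0.27), the lipid phosphatase MTMR14 (-0.69 ± 0.16, adjusted p = 0.27) and the palmitoyltransferase ZDHHC16 (-0.41 ± 0.10, adjusted p = 0.27) were also lower in each PFA liver than in any control.

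SLC26A6, an anion exchanger that moves oxalate, chloride and bicarbonate, was at 10.5, 12.05, 13.1, 10, 7.64 and 9.99 CPM in the controls and at 6.25, 6.86, 6.36, 6.11, 6.59 and 5.29 CPM with PFA. Its log2 fold change was -0.76 ± 0.17 (SE, unadjusted p = 0.000221, adjusted p = 0.27), and -0.70 among PigLiv titles alone. ARHGEF28, an activator of the GTPase RhoA, was at 2.29, 3.21, 2.27, 2.29, 3.49 and 3.31 CPM in the controls and at 1.09, 1.31, 1.002, 1.8, 1.65 and 1.27 CPM with PFA. Both genes separated the diets without overlap. The log2 fold change of ARHGEF28 was -1.05 ± 0.25 (SE, unadjusted p = 0.000304, adjusted p = 0.27), and it was -1.04 among PigLiv titles and -1.07 without the PL controls.

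DEF6, an exchange factor for Rac known from lymphocytes, was at 4.26, 7.401, 5.24, 4.75, 4.69 and 4.997 CPM in the controls and at 3.296, 0.896, 0.551, 3.56, 1.91 and 2.696 CPM with PFA. All 6 PFA livers lay below the lowest control, and the log2 fold change was -1.27 ± 0.33 (SE, unadjusted p = 0.000746, adjusted p = 0.27). It was -0.56 among PigLiv titles alone, where the summed T and NK markers were 55.05 to 99.99 CPM in controls and 56.7 to 94.1 CPM with PFA.

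PPOX, an enzyme of heme synthesis, lay between 14.9 and 20.2 CPM (median 17.3) in the controls and between 11.3 and 15.4 CPM (median 12.7) with PFA, and its ranges overlapped with a log2 fold change of -0.45 ± 0.11 (SE, unadjusted p = 0.000518, adjusted p = 0.27). GSTZ1, which opens the last steps of tyrosine breakdown and belongs to the glutathione transferases, lay between 274 and 359.7 CPM (median 296) in the controls and between 184 and 268 CPM (median 226) with PFA with no overlap. Its log2 fold change was -0.43 ± 0.11 (SE, unadjusted p = 0.000932, adjusted p = 0.27), and -0.31 (unadjusted p = 0.0161) without the PL controls. Of the 37 genes that DESeq2 called, 22 did not overlap between the diets and 33 had a symbol. Without the PL controls all 37 had an unadjusted p under 0.05. Among PigLiv titles alone 12 had one, and all 37 were lower. The genes were called on these same pigs, so these counts are no separate support. On the oil diet 27 of the 37 were higher with the additive. That tool gave no adjusted p for METTL17, SLC26A6, ARHGEF28 and DEF6.

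Genes higher with PFA had larger p-values. PSIP1, a chromatin-bound coactivator, was at 21.96, 20.5, 19.5, 20.2, 24.9 and 22.7 CPM in the controls and at 27.8, 26.05, 33.6, 29.8, 27.6 and 31.2 CPM with PFA, and FAM3C, a secreted protein, at 31.9, 28.7, 31.7, 24.1, 28.95 and 30.7 and at 40.5, 31.97, 50.8, 38.02, 40.9 and 34.2 CPM. All PFA livers lay above all controls for both genes. Their log2 fold changes were 0.44 ± 0.13 (SE, unadjusted p = 0.00286, adjusted p = 0.3) for PSIP1 and 0.43 ± 0.13 (SE, unadjusted p = 0.00304, adjusted p = 0.302) for FAM3C, and without the PL controls 0.39 (unadjusted p = 0.0163) and 0.45 (unadjusted p = 0.0063).

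FUCA2, a fucosidase, lay between 22.4 and 38.3 CPM (median 31.1) in the controls and between 35.4 and 58.7 CPM (median 45.03) with PFA, with a log2 fold change of 0.54 ± 0.15 (SE, unadjusted p = 0.0018, adjusted p = 0.278). The nucleosome assembly protein NAP1L1 lay between 42.5 and 55.4 CPM (median 52.1) in the controls and between 52.9 and 92.2 CPM (median 67.6) with PFA, with 0.45 ± 0.13 (SE, unadjusted p = 0.00209, adjusted p = 0.278). In both genes the lowest PFA liver was within the control range. Ranges also overlapped for the membrane metalloproteinase MMP16 (1.41 ± 0.41, adjusted p = 0.278), the telomere and replication-timing protein RIF1 (0.96 ± 0.30, adjusted p = 0.303), the sphingosine phosphatase SGPP1 (0.49 ± 0.15, adjusted p = 0.302), the glycerol kinase GK5 (0.83 ± 0.26, adjusted p = 0.311), the peroxisomal import receptor PEX7 (0.50 ± 0.16, adjusted p = 0.32) and the histone deacetylase partner SAP30 (0.52 ± 0.17, adjusted p = 0.32). Among PigLiv titles their log2 fold changes were 0.62 for MMP16, 0.20 for RIF1, 0.31 for SGPP1, 0.67 for GK5, 0.45 for PEX7 and 0.64 for SAP30.

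Among genes at that unadjusted p with 1 CPM or more on average, the lowest log2 fold change belonged to CYP4F3, a fatty acid omega-hydroxylase. It was at 18.8, 139, 109.8, 10.7, 10.7 and 18.6 CPM in the controls and at 22.7, 12.6, 4.96, 19.3, 14.1 and 7.31 CPM with PFA, with a log2 fold change of -1.92 ± 0.64 (SE, unadjusted p = 0.00659, adjusted p = 0.333). The level was high in the PL controls only, and the difference was 0.16 among PigLiv titles and -0.12 (unadjusted p = 0.822) without the PL controls. The highest belonged to IGFALS, the carrier subunit of circulating insulin-like growth factor complexes, at 3.27, 4.795, 5.897, 6.78, 2.12 and 3.04 CPM in the controls and at 5.99, 12.2, 4.56, 2.999, 11.8 and 56.9 CPM with PFA. P-138 was far above every other liver, and the log2 fold change was 1.86 ± 0.89 (SE, unadjusted p = 0.0472, adjusted p = 0.45).

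**Figure D3:**
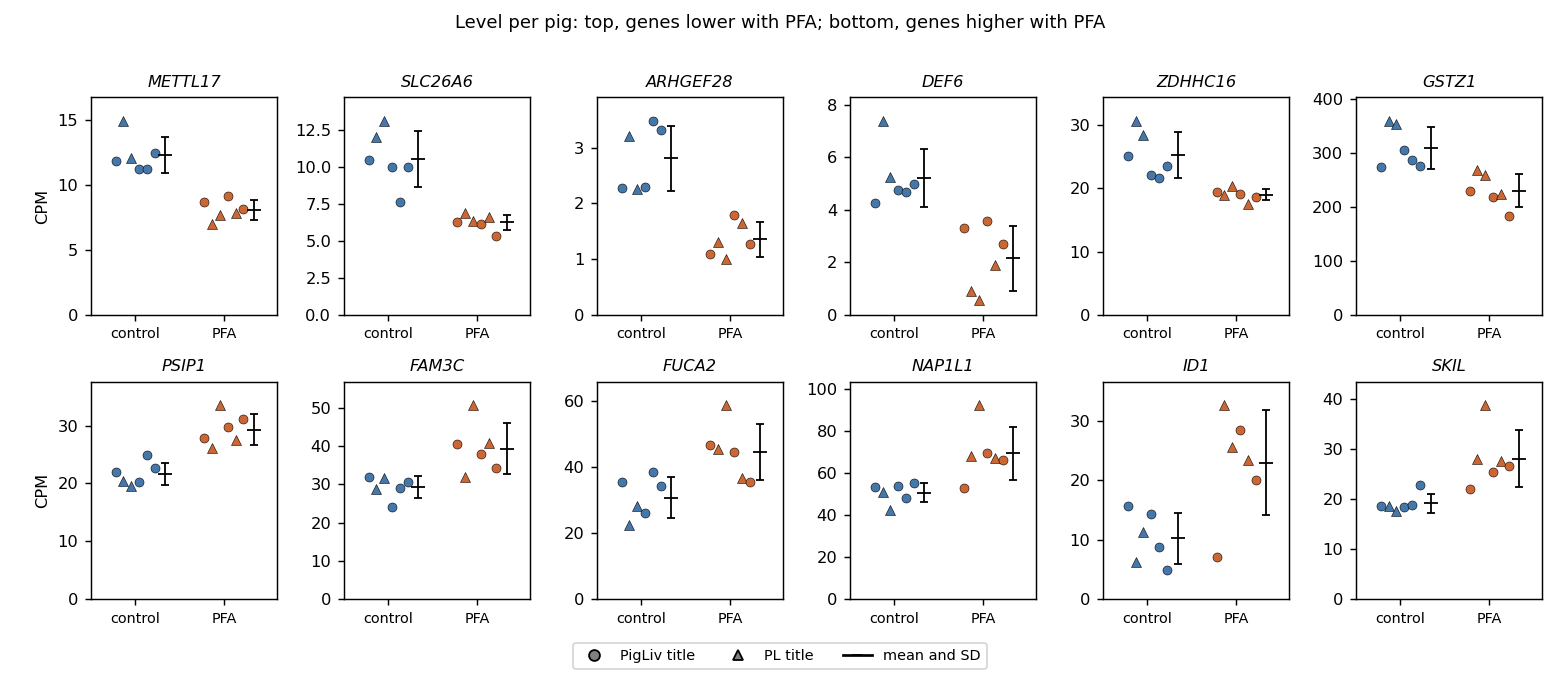
Level (CPM) of 12 genes in each control (blue) and PFA (orange) liver, with the mean and SD. Circles are PigLiv and triangles PL titles. In the upper row every PFA liver lies below every control, and in the lower row PSIP1 and FAM3C lie wholly above while the other genes overlap.

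Genes of amino acid breakdown and the urea cycle were lower in part. Of 29 tested members 0 were higher and 9 lower at an unadjusted p under 0.05, against 3.80% and 7.21% of all genes, and the median log2 fold change was -0.24 against 0.03 over all genes. Without the PL controls, C-80 and C-85, 0 were higher and 3 lower at that p, with a median of -0.17. Among PigLiv titles 2 were lower at that p, with a median of -0.23. Smaller sets of pigs also give larger p-values, and the part of C-80 and C-85 in the count was not tested. The 9 genes were GSTZ1, GLS2, SDSL, NAGS, ARG1, HGD, GOT1, ASS1 and FAH. ARG1, the arginase that releases urea, lay between 188 and 250.3 CPM (median 214) in the controls and between 117 and 224 CPM (median 140.4) with PFA, with -0.51 ± 0.21 (SE, unadjusted p = 0.023, adjusted p = 0.41). ASS1, which joins citrulline to aspartate, lay between 562 and 726 CPM (median 629.9) in the controls and between 334 and 597 CPM (median 468) with PFA, with -0.47 ± 0.20 (SE, unadjusted p = 0.0291, adjusted p = 0.42). The ranges of ARG1 overlapped through P-95, at 224.2 CPM. ARG1 and ASS1 are named here after their values were seen.

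GLS2, the liver glutaminase that releases ammonia, had a log2 fold change of -0.48 ± 0.15 (SE, unadjusted p = 0.00367, adjusted p = 0.303), and -0.44 (unadjusted p = 0.0175) without the PL controls. NAGS, which makes the activator of the first urea cycle step, had -0.62 ± 0.25 (SE, unadjusted p = 0.0221, adjusted p = 0.41), and without the PL controls -0.43 (unadjusted p = 0.139). SDSL, a relative of serine dehydratase, had -0.46 ± 0.17 (SE, unadjusted p = 0.0124, adjusted p = 0.361). The ranges of GLS2, NAGS and SDSL overlapped between the diets.

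Of 34 genes of gluconeogenesis and glycolysis, 0 were higher and 6 lower at an unadjusted p under 0.05 (SLC37A4, PFKFB1, PCK1, SLC25A11, GOT1 and PKLR), against 3.80% and 7.21% of all genes, with a median of -0.09. For the same list, without the PL controls 0 were higher and 2 lower at that p, with a median of -0.08. PCK1, the cytosolic enzyme that commits oxaloacetate to glucose, was at 184, 941, 788, 640.4, 492 and 1010 CPM in the controls and at 377, 299, 164, 412, 378 and 333 CPM with PFA. In 5 of the 6 controls it was above every PFA liver, while C-71 was within the PFA range. The log2 fold change was -1.05 ± 0.37 (SE, unadjusted p = 0.00913, adjusted p = 0.335), and -0.83 (unadjusted p = 0.0546) without the PL controls.

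SLC37A4, the glucose-6-phosphate transporter, lay between 188 and 362 CPM (median 236) in the controls and between 141 and 204 CPM (median 171) with PFA, with a log2 fold change of -0.58 ± 0.19 (SE, unadjusted p = 0.00584, adjusted p = 0.33), and -0.32 (unadjusted p = 0.0974) without the PL controls. The bifunctional regulator PFKFB1 lay between 97.6 and 164 CPM (median 112) in the controls and between 59.8 and 101.9 CPM (median 77.6) with PFA, with -0.58 ± 0.20 (SE, unadjusted p = 0.00735, adjusted p = 0.334). Both overlapped, and C-80 was the highest control for both.

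The 250 bases before the RefSeq start of PCK1 (Sscrofa11.1, chr17:57930257-57930506, plus strand) are shown since PCK1 had the largest fold change in this group and had the opposite sign on the oil diet, as described below. The capitals mark TGACGTCA, the palindromic cyclic AMP response element, which reads the same on both strands and stands once in this window, starting 11 bases before the start. It was found in 280 of 13705 windows of this length (2.04%). The match is a description of these letters only.
PCK1: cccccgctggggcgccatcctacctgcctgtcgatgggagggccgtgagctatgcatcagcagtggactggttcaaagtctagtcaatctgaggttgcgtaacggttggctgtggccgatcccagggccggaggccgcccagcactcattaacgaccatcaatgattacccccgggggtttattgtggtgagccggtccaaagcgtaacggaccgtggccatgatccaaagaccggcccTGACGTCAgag

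Clock genes were also lower in part. Of 18 tested, 0 were higher and 4 lower at an unadjusted p under 0.05, against 3.80% and 7.21% of all genes, and their median was -0.23. All 4 missed that p in the smaller set: without the PL controls 0 were higher and 0 lower at that p, with a median of -0.09. Among the lower genes were the repressors CIART (-0.63 ± 0.26, adjusted p = 0.41) and BHLHE40 (-0.54 ± 0.24, adjusted p = 0.434) and the output factor HLF (-0.40 ± 0.18, adjusted p = 0.421). Without the PL controls their log2 fold changes were -0.46, -0.47 and -0.13. The time of day of sampling is not given in the labels.

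In lipid metabolism few genes had a low p, in both directions. Over all genes 3.80% were higher and 7.21% lower at an unadjusted p under 0.05. Of 29 genes of cholesterol synthesis and uptake 1 was higher (SQLE, squalene epoxidase, 0.45 ± 0.20, adjusted p = 0.424) and 4 were lower at an unadjusted p under 0.05, while without the PL controls 0 were higher and 4 lower at that p, with a median of -0.10. Among the lower genes were the sterol uptake protein NPC1L1, INSIG1, which holds the sterol sensor in the endoplasmic reticulum, and the isomerase EBP. INSIG1 lay between 219 and 430.4 CPM (median 322) in the controls and between 155 and 306 CPM (median 159.5) with PFA, with a log2 fold change of -0.68 ± 0.27 (SE, unadjusted p = 0.0209, adjusted p = 0.409). NPC1L1 lay between 4.83 and 17.9 CPM (median 8.05) in the controls and between 2.399 and 8.698 CPM (median 4.49) with PFA, with -0.93 ± 0.36 (SE, unadjusted p = 0.0155, adjusted p = 0.381), and -1.19 (unadjusted p = 0.00462) without the PL controls. EBP had -0.35 ± 0.15 (SE, unadjusted p = 0.0284, adjusted p = 0.42).

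Of 26 genes of fatty acid oxidation, 2 were higher and 2 lower at that p (7.69% each, against 3.80% and 7.21% of all genes). The lower share was near that of all genes. Without the PL controls 1 was higher and 1 lower at that p, with a median of -0.03. The mitochondrial acyltransferase CPT2 (-0.54 ± 0.18, adjusted p = 0.333) and the peroxisomal thiolase ACAA1 (-0.35 ± 0.14, adjusted p = 0.41) were lower, and PEX11A (0.36 ± 0.16, adjusted p = 0.43), which divides peroxisomes, and the pantetheinase VNN1 (0.68 ± 0.31, adjusted p = 0.437), were higher. Of 20 genes of fat synthesis only the phosphatidate phosphatase LPIN1 was at that p, and it was lower (-0.58 ± 0.22, adjusted p = 0.383). Of 14 genes of bile acid synthesis the only one was the bile acid ligase SLC27A5, which was lower at -0.99 ± 0.34 (SE, unadjusted p = 0.00819, adjusted p = 0.334), and the log2 fold change was -0.32 (unadjusted p = 0.31) without the PL controls.

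Genes that handle foreign compounds and oxidative stress had few members at a low p. The shares over all genes were 3.80% higher and 7.21% lower at an unadjusted p under 0.05. Of 12 xenobiotic receptors and partners 0 were higher and 3 lower at an unadjusted p under 0.05, while without the PL controls 0 were higher and 1 lower at that p, with a median of -0.11. The pregnane receptor NR1I2 lay between 146 and 242 CPM (median 161) in the controls and between 102.2 and 158 CPM (median 120.5) with PFA, with a log2 fold change of -0.45 ± 0.14 (SE, unadjusted p = 0.00372, adjusted p = 0.303), and C-80 was the highest control. The constitutive androstane receptor NR1I3 (-0.32 ± 0.14, adjusted p = 0.42) and their partner RXRB (-0.27 ± 0.12, adjusted p = 0.42) had lower levels with an overlap, and without the PL controls their log2 fold changes were -0.20 and -0.18. Of 20 phase 1 enzymes CYP2E1 was the only one at that p (-0.35 ± 0.14, adjusted p = 0.41), and its levels were between 3063 and 4378 CPM (median 3948) in the controls and between 2349 and 3708 CPM (median 2923) with PFA. GSTZ1 was the only one of 17 phase 2 enzymes and SLC22A7, an organic anion transporter (-0.36 ± 0.15, adjusted p = 0.42), the only one of 11 drug transporters. These lists were tested in part only: 20 of 32 phase 1 enzymes, 17 of 31 phase 2 enzymes and 11 of 18 drug transporters.

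Of 21 Nrf2 targets and 19 antioxidant enzymes none had an unadjusted p under 0.05, and their medians were 0.02 and 0.07. The nearest were the lipid peroxidase GPX4, with -0.35 ± 0.17 (SE, unadjusted p = 0.0511, adjusted p = 0.452), and the catalase CAT, with 0.34 ± 0.18 (SE, unadjusted p = 0.0735, adjusted p = 0.49). CAT lay between 2460 and 4841 CPM (median 4185) in the controls and between 3698 and 7406 CPM (median 4667) with PFA, and C-80 was the lowest control. Thioredoxin reductase TXNRD1 had 0.24 ± 0.15 (SE, unadjusted p = 0.12, adjusted p = 0.557), and the sign turned to -0.05 with the share of read pairs on no gene as a term. The median SE of an Nrf2 target was 0.19. Among receptors of menthol, thymol and carvacrol, 3 of the channels listed were tested (TRPM8, TRPA1 and TRPM7), with log2 fold changes of -1.20 ± 0.75 (SE, unadjusted p = 0.123, adjusted p = 0.562) for TRPM8, 0.09 ± 0.36 (SE, unadjusted p = 0.814, adjusted p = 0.948) for TRPA1 and 0.01 ± 0.17 (SE, unadjusted p = 0.93, adjusted p = 0.983) for TRPM7. The sign of TRPA1 and TRPM7 depended on which pigs were in the fit.

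Immune genes differed at few members. At an unadjusted p under 0.05, 8% of the NF-kB group were lower, near the 7.21% of all genes. Of 18 acute phase proteins 3 were lower at an unadjusted p under 0.05: the hyaluronan-binding chains ITIH1 and ITIH3 and the protease inhibitor SERPINA1. Of this list, without the PL controls 0 were higher and 1 lower at that p, with a median of -0.02. ITIH1 lay between 155 and 511 CPM (median 282) in the controls and between 116 and 202 CPM (median 166) with PFA, with a log2 fold change of -0.89 ± 0.24 (SE, unadjusted p = 0.00131, adjusted p = 0.27), and -0.47 (unadjusted p = 0.0463) without the PL controls. Of 25 genes of the NF-kB group the adaptor TRAF1 (-0.58 ± 0.25, adjusted p = 0.421) and the inhibitor NFKBIA (-0.41 ± 0.20, adjusted p = 0.45) were lower, while without the PL controls 0 were higher and 3 lower at that p, with a median of -0.12. Of 34 interferon-stimulated genes OAS2 was the only one (-0.85 ± 0.40, adjusted p = 0.449), with -0.42 (unadjusted p = 0.34) without the PL controls, and of 25 complement genes none reached that p, with medians of 0.07 and 0.20.

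T and NK cell markers had negative values in 10 of 13, of which 2 were lower at an unadjusted p under 0.05, against 7.21% of all genes, with a median of -0.21. The sign of that median turned in the smaller set: without the PL controls 0 were higher and 0 lower at that p, with a median of 0.11. GNLY, a granule protein of cytotoxic lymphocytes, lay between 5.41 and 25.4 CPM (median 14.4) in the controls and between 3.08 and 8.58 CPM (median 6.61) with PFA, with a log2 fold change of -1.26 ± 0.36 (SE, unadjusted p = 0.00174, adjusted p = 0.278). The groups overlapped, C-80 and C-85 were the 2 highest controls, and without them the log2 fold change of GNLY was -0.72 (unadjusted p = 0.0532). The log2 fold change of CD8B, a coreceptor chain of cytotoxic T cells, was -0.66 ± 0.28 (SE, unadjusted p = 0.0254, adjusted p = 0.412). That of the B cell receptor chain CD79A was -0.81 ± 0.23 (SE, unadjusted p = 0.00196, adjusted p = 0.278). CD79A was the 1 lower at that p of 11 B and plasma cell markers, of which 7 were on the higher side. Their median was 0.05, and 0.40 without the PL controls. Kupffer cell markers were higher in 14 of 15 with a median of 0.29, and the exception was MARCO, a scavenger receptor (-0.68 ± 0.32, adjusted p = 0.45), with -0.34 (unadjusted p = 0.344) without the PL controls. Without the PL controls the Kupffer median was -0.03. Among PL titles alone it was 1.89, with 13 of 15 at an unadjusted p under 0.05, all of them higher. Within these titles the diet cannot be told apart from the title ending.

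BMP signalling had members on the higher side. Of 24 tested 5 were higher and 0 lower at an unadjusted p under 0.05, against 3.80% of all genes higher, and the median was 0.24. For this list, without the PL controls 3 were higher and 0 lower at that p, with a median of 0.12, and among PigLiv titles none was at that p. ID1, a target that blocks basic helix-loop-helix factors (ENSSSCG00000037016, chr17:35316518-35317742, plus strand), was at 15.7, 6.31, 11.3, 14.3, 8.81 and 4.86 CPM in the controls and at 7.12, 32.6, 25.5, 28.5, 23.4 and 20.1 CPM with PFA. In 5 of 6 PFA livers it was above every control, and P-67 was within the control range. Its log2 fold change was 1.16 ± 0.36 (SE, unadjusted p = 0.00388, adjusted p = 0.303), 1.07 (unadjusted p = 0.0198) without the PL controls and 0.77 among PigLiv titles.

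The type 1 receptor BMPR1A lay between 13.8 and 19.5 CPM (median 17.7) in the controls and between 18.6 and 28.4 CPM (median 22.9) with PFA, with 0.41 ± 0.14 (SE, unadjusted p = 0.00827, adjusted p = 0.334), and the type 2 receptor BMPR2 lay between 58.6 and 89.2 CPM (median 82.8) in the controls and between 85.6 and 156 CPM (median 108) with PFA, with 0.49 ± 0.17 (SE, unadjusted p = 0.00838, adjusted p = 0.334). The ligand BMP5 had 0.42 ± 0.20 (SE, unadjusted p = 0.0467, adjusted p = 0.45), and the target ID3, named after its value was seen, 0.64 ± 0.31 (SE, unadjusted p = 0.0485, adjusted p = 0.451). SKIL, a SMAD corepressor that was not in this list, lay between 17.6 and 22.9 CPM (median 18.6) in the controls and between 22.1 and 38.9 CPM (median 27.2) with PFA, with 0.55 ± 0.17 (SE, unadjusted p = 0.00394, adjusted p = 0.303).

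A stretch of 200 bases upstream of ID1 is shown since ID1 had the largest fold change of the BMP genes (RefSeq, Sscrofa11.1, chr17:35315518-35315717, plus strand, from 1000 bases before the start). The capitals mark GGCGCC, a palindromic motif known for SMAD binding in ID1 promoters, which reads the same on both strands. It stands once here, starting 991 bases before the start, and it was found in 351 of 13705 windows of this length and place (2.56%). The match is no evidence of binding. The stretch of PCK1 shown above holds this motif too, and that of ID1 holds the cyclic AMP response element TGACGTCA, both unmarked.
ID1: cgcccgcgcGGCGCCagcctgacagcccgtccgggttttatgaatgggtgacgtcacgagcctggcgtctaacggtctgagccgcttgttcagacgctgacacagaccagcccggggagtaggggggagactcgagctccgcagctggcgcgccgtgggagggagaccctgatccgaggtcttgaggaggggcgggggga

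Genes of cell division were mostly on the higher side, while 3.80% of all genes were higher and 7.21% lower at an unadjusted p under 0.05. Of 41 genes of DNA replication 34 had a positive log2 fold change, 3 were higher and 0 lower at an unadjusted p under 0.05, and the median was 0.22, while 53.8% of all genes had a positive log2 fold change. In this list without the PL controls 4 were higher and 0 lower at that p, with a median of 0.22. The helicase subunits MCM6 (0.63 ± 0.24, adjusted p = 0.381), MCM4 (0.66 ± 0.25, adjusted p = 0.383) and MCM5 (0.94 ± 0.37, adjusted p = 0.396) were the 3 over all pigs. Without the PL controls their log2 fold changes were 0.54, 0.80 and 1.24. Of 43 genes of mitosis and chromatid cohesion 36 were on the higher side and 5 at that p, with a median of 0.27, and without the PL controls 1 were higher and 0 lower at that p, with a median of 0.31. The 5 over all pigs were the cohesin subunits STAG1 and STAG2, the cohesin regulator PDS5B, SGO2, which protects cohesin, and the checkpoint protein MAD2L1. STAG1 lay between 13.2 and 19.2 CPM (median 17.04) in the controls and between 19.7 and 26.8 CPM (median 21.4) with PFA, without overlap, with 0.39 ± 0.14 (SE, unadjusted p = 0.00973, adjusted p = 0.337). Of 24 G1 genes RBL1 (0.43 ± 0.18, adjusted p = 0.41) and CCND1 (0.41 ± 0.20, adjusted p = 0.45) were higher at that p, and without the PL controls 3 were higher and 0 lower at that p, with a median of 0.16.

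Of 45 collagen chains and matrix proteins 39 were on the higher side, 4 of them at an unadjusted p under 0.05 (COL6A2, SERPINH1, COL6A1 and COL5A1), and the median was 0.26. The 4 were 8.89% of the list, against 3.80% of all genes. Without the PL controls the median was 0.01 and none reached that p. COL6A2 lay between 9.19 and 22.4 CPM (median 10.8) in the controls and between 10.8 and 47.5 CPM (median 24.6) with PFA, with a log2 fold change of 1.09 ± 0.41 (SE, unadjusted p = 0.0135, adjusted p = 0.367). Stellate cell and fibroblast markers, 3 collagen chains among them, had a sum of 751.4 to 2043 CPM in controls and 1328 to 2256 CPM with PFA, and their part in the matrix values was not tested. Of 25 coagulation genes the inhibitors TFPI (0.66 ± 0.29, adjusted p = 0.421) and PROS1 (0.37 ± 0.17, adjusted p = 0.439) were higher at that p, and without the PL controls 0 were higher and 0 lower at that p, with a median of 0.09.

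**Figure D4:**
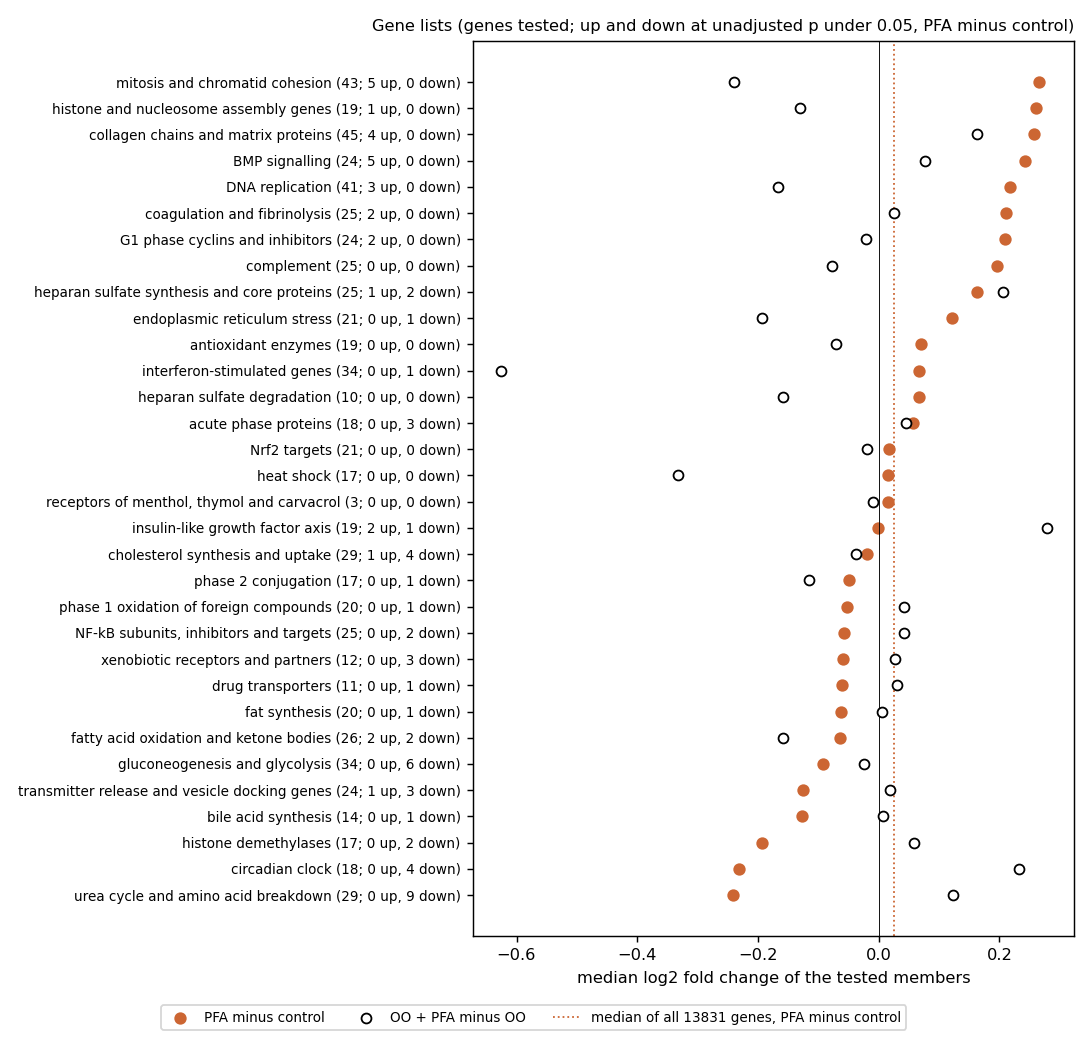
Median log2 fold change of the tested members of each gene list, PFA minus control (filled) and OO + PFA minus OO (open), with the number tested and the numbers at an unadjusted p under 0.05 in each direction for PFA minus control. The dotted line is the median of all genes. Of the lists plotted, amino acid breakdown (-0.24) and clock genes (-0.23) have the 2 lowest medians for PFA minus control and lie above 0 on oil, and mitosis (0.27) has the highest.

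Livers fed oxidized oil gave a second comparison of the additive, OO + PFA (5 pigs) against OO (6 pigs), which shared no library with the first. Here 0 genes were called (smallest adjusted p 0.090, edgeR) and 1176 had an unadjusted p under 0.05 (8.50%), and DESeq2 called 31. Most genes that were higher with PFA on the normal diet were lower with it on oil: of the 525, 75.4% were lower, against 53.5% of all genes, and of the 997 lower genes 72.1% were higher, against 46.5% of all genes. The slope of expression on GC content per library was -0.378 to 0.418 with OO and 0.041 to 0.487 with OO + PFA. Title forms were also uneven: OO-88, OO-97 and OO-130 had a PL title with OO, and OP-137 alone of the fitted livers with OO + PFA. The part of the GC slope and of the title forms in this turn of sign was not tested. Over both oil backgrounds together no gene was called by edgeR, with 844 at an unadjusted p under 0.05 (6.10%), and DESeq2 called 2. The difference of the additive's effect between the backgrounds was fitted as an interaction, and edgeR called 0 genes with 1881 at an unadjusted p under 0.05, while DESeq2 called 161.

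PCK1 had the smallest interaction p. It lay between 309 and 729.8 CPM (median 412) with OO and between 823 and 4073 CPM (median 1455) with OO + PFA, without overlap, opposite to the normal diet. The log2 fold change of the additive on oil was 2.03 (adjusted p = 0.0942), against -1.05 on the normal diet, and the interaction was 3.07 (adjusted p = 0.0505). ID1 was -1.34 (adjusted p = 0.337) on oil against 1.16 on the normal diet, and DEF6 1.09 (adjusted p = 0.386) against -1.27. DEF6 lay between 0.936 and 2.58 CPM (median 1.83) with OO and between 2.83 and 4.68 CPM (median 3.44) with OO + PFA. DEF6 separated the diets without overlap on both backgrounds, in opposite directions, with an interaction of 2.36 (adjusted p = 0.132).

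The same turn of sign was seen for ARG1, at 0.78 (adjusted p = 0.316) on oil, for INSIG1 at 1.10 (adjusted p = 0.285), for SLC37A4 at 0.58 (adjusted p = 0.451) and for GK5 at -0.91 (adjusted p = 0.368). The list medians turned too, to 0.12 on oil for amino acid breakdown, 0.23 for the clock, -0.17 for DNA replication and -0.24 for mitosis. ARHGEF28 (-0.48, adjusted p = 0.607), ZDHHC16 (-0.13, adjusted p = 0.753) and GNLY (-1.35, adjusted p = 0.33) had negative values on both backgrounds. METTL17 was -0.05 (adjusted p = 0.91) on oil, with an interaction of 0.55 (adjusted p = 0.178). Over both backgrounds GNLY had a log2 fold change of -1.30 with an adjusted p of 0.371 by edgeR.

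**Figure D5:**
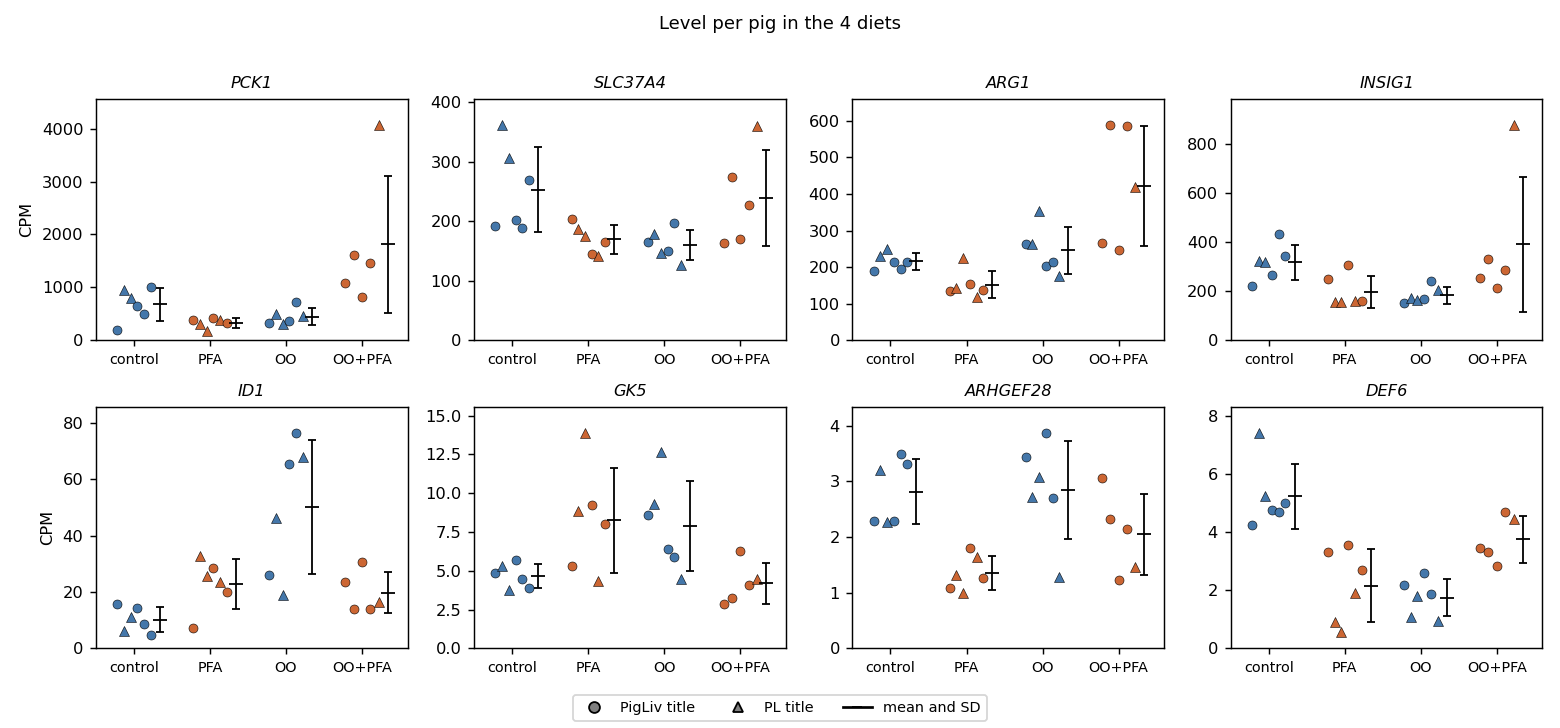
Level (CPM) of 8 genes in each liver of the 4 diets, with the mean and SD, circles for PigLiv and triangles for PL titles, and orange for diets with the additive. PCK1, ARG1, INSIG1 and DEF6 are lower with PFA than in controls and higher with OO + PFA than with OO, and ID1 and GK5 the reverse. The mean of ARHGEF28 is lower with the additive in both pairs of diets, and the livers overlap on oil.

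In the ileum of 10 of these pigs the same diets gave 0 called genes of 14300 (smallest adjusted p 0.702, edgeR), with 401 at an unadjusted p under 0.05 (2.80%). Of the liver genes at an unadjusted p under 0.05, 1424 were measured in the ileum, and 918 of these had the same sign there. The share with the same sign over all genes was not computed, so this count cannot be read as agreement between the tissues. Among named genes PCK1 had a log2 fold change of -1.18 in the ileum (unadjusted p = 0.019), NFKBIA -0.615 (unadjusted p = 0.000683) and PEX11A 0.49 (unadjusted p = 0.0199). These 3 had the sign of the liver. EBP, lower in the liver, had 0.37 in the ileum (unadjusted p = 0.0429).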

How the data were processed

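Messenger RNA of pig liver was measured, 12 libraries of 2 diets, with the other liver diets in the same fit. The authors aligned reads with STAR 2.6.1d to Sscrofa11.1 and deposited HTSeq counts of read pairs per Ensembl gene, not normalized. The strand setting and annotation release were not given in the sources used here. The submitters' processing notes also name DESeq2 1.22.2. Members, gene lists and named genes were chosen with earlier results of these data known. Genes named were the 12 with the smallest p in each direction at 1 CPM or more, 2 that the study names, up to 4 per list, genes called in any fit, markers and the extremes of fold change.

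Counts were tested here with edgeR 4.0.16 (TMM, filterByExpr, two-sided quasi-likelihood test, Benjamini-Hochberg adjustment) on 23 livers with a term per diet. The pig OP-77, which the study left out, was left out of the fit and entered only the alternative with all 24 libraries. Each fold change is log2 of PFA over control. DESeq2 1.42.0 and limma 3.58.1 (R 4.3.3) were alternatives, as were other scalings and filters, terms for sex, title form, GC slope and read pairs on no gene, each title form alone, and leaving out each pig. Steps were tested on simulated counts. Rows for pairs on no gene were kept out of library sizes. Symbols were found for 14857 of 25880 genes and positions for 13707. GC content had a value for 11024 of 13831 tested genes, under 80%, so a check of GC over all genes is void and its values are a description. A gene with 3 counts is near the limit of counting. Near-identical paralogs may share reads. Some results are not reported here.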

Additional observations from a re-analysis of the deposited data

Results flagged for a closer look

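Values far from the other 5 livers of a diet were searched in 220 groups. A rate of about 1 in 20 groups by chance holds for independent groups, while these groups shared the same pigs. Genes were also named partly by their p in these data, so the number found cannot be compared with that rate. Such values were found in 23 groups (10.45%). The control C-80 was such a pig in METTL17 (14.95 CPM), CCDC159 (27.45), DNAJC17 (40.1), DDX39B (250.9), VPS52 (52.6), DEF6 (7.401), PFKFB1 (164.1), NR1I2 (241.7) and ERN1 (77.41 CPM), where it was the highest control, and in CAT (2460 CPM), where it was the lowest. Its read pairs on several genes (3.291%) and the share of its 10 most abundant genes (34.84%) were also far above the other controls. The PFA pig P-95 was highest in SGPP1 (41.19 CPM), SKIL (38.88), ARG1 (224.2), STAG1 (26.81) and PEX11A (24.8) and lowest in CIART (2.305 CPM). The PFA pig P-138 was highest in IGFALS (56.87 CPM), CD8B (4.482) and TRPM8 (6.789 CPM). Among controls C-110 was highest in SKIL (22.89 CPM), C-92 in COL6A1 (40.99) and EMILIN1 (30.43), and C-71 was lowest in SERPINA1 (1.255 CPM). The fits without C-80, without both PL controls and within each title form are given with the results.

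DEF6 separated the diets in opposite directions on the normal and on the oil diet, with a difference of 2.36 on the log2 scale between the effects. The interaction fitted by edgeR had an adjusted p of 0.132, so this difference did not pass the test.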

How the results depend on the processing

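No paired analysis was possible because the diets compared share no pig, and the numbers name different animals. For PFA against control livers the count of genes called (adjusted p no higher than 0.05) went from 0 to 37 with DESeq2 and 13 with a GC slope as a term (2 lower, CCDC159 and METTL17, and 11 higher, among them METRNL, CHPF, COL6A2, SLC25A6, EMILIN1 and PSIP1), and it was 0 in the other fits, also leaving out each pig (0 to 0). The count at an unadjusted p under 0.05 was 1522, and it was 463 with the share on no gene as a term, 271 with PigLiv titles alone, 2319 with PL titles alone, and 554 without both PL controls, which was added after seeing the data. Leaving out each pig gave 838 (without C-80) to 1711. The GC term raised it to 2072, of which 1110 were higher, and among the 1200 genes of the same GC set without the term 422 were higher. For OO + PFA against OO the 0 genes became 31 with DESeq2, 1 with all 24 libraries and 2 with the GC term. Over both backgrounds they became 2 with DESeq2 and 70 with the GC term, and for the interaction 161 with DESeq2. In the ileum 0 stayed 0 in every fit run. The p of the separation was 0.0671 to 0.152 over 3 other settings. Of 3179 values of 110 named genes under alternatives, 3135 kept direction and side of the threshold, 25 passed it and 19 turned in sign, in 5 genes. CYP4F3 turned with PigLiv titles alone (0.16), TXNRD1 with the share on no gene as a term (-0.05) and with that term and the GC slope (-0.06), and SYT1 without both PL controls (0.07). The channels TRPA1 and TRPM7, near 0 over all pigs, gave the others: TRPA1 -0.61 with PL titles alone and -0.11 to 0.27 leaving out each pig, and TRPM7 0.00 with the 12 libraries alone, -0.02 with title form as a term, -0.04 with the GC slope, -0.09 with PL titles alone and -0.07 to 0.11 leaving out each pig. Leaving out a pig turned no other named gene. Causes were not tested.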

Other observations

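Other gene lists had few members at an unadjusted p under 0.05 between PFA and control livers, where 3.80% of all genes were higher and 7.21% lower. Of 17 histone demethylases 0 were higher and 2 lower, PHF8 (-0.49 ± 0.15, adjusted p = 0.302) and KDM2A (-0.20 ± 0.09, adjusted p = 0.42), with a median of -0.19, and without the PL controls 0 were higher and 1 lower at that p, with a median of -0.16. Of 25 genes of heparan sulfate synthesis and core proteins GPC3, a core protein, was higher (0.51 ± 0.20, adjusted p = 0.395), and the sulfotransferase NDST2 (-0.43 ± 0.13, adjusted p = 0.297) and the linker enzyme B4GALT7 (-0.53 ± 0.19, adjusted p = 0.334) were lower, while without the PL controls 0 were higher and 2 lower at that p, with a median of 0.21. In the insulin-like growth factor axis (19 tested) JAK2 (0.35 ± 0.14, adjusted p = 0.393) and IGFALS were higher and STAT5B (-0.28 ± 0.09, adjusted p = 0.333) lower, and STAT5B did not overlap between the diets, while without the PL controls 0 were higher and 0 lower at that p, with a median of 0.11. Of 19 histone and nucleosome assembly genes CENPH (0.66 ± 0.23, adjusted p = 0.335) was the one higher. Of 24 genes of transmitter release and vesicle docking 3 were lower, VAMP2 (-0.79 ± 0.21, adjusted p = 0.27), GLS2 and SYT1 (-2.68 ± 1.06, adjusted p = 0.396), and LIN7C (0.37 ± 0.18, adjusted p = 0.45) was higher. The difference for SYT1 was 0.07 on the log2 scale without the PL controls. Of 21 genes of endoplasmic reticulum stress the sensor ERN1 was lower (-0.69 ± 0.28, adjusted p = 0.409, and -0.42 without the PL controls), and of 17 heat shock genes and 10 of heparan sulfate degradation none was at that p.

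Of 9 genes known from the portal side of the liver lobule 4 were lower at that p (PCK1, GLS2, ARG1 and ASS1), against 7.21% of all genes. All 4 are also in the lists of glucose or amino acid metabolism. The median of the 9 was -0.33, and without the PL controls 0 were higher and 1 lower at that p, with a median of -0.12. Of 10 genes of the central side 3 were lower, CYP2E1 among them, with a median of -0.02, and without the PL controls 0 were higher and 0 lower at that p, with a median of 0.13. Among other cell markers 1 of 8 for cholangiocytes and 1 of 11 for B and plasma cells were lower, and none of 14 for stellate cells, 9 for endothelium, 5 for neutrophils, 7 for red blood cell precursors and 5 for platelets was at that p. Interferon-stimulated genes had a median of 0.07 on the normal diet and -0.63 on oil.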
